A study of Rattus norvegicus with 9 samples.

Results

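A set of 7 genes of cholesterol synthesis and its feedback control was followed in 9 rat livers. They were taken from the tables by symbol, 7 of the 32883 genes listed, and all 7 passed the filter on low counts that kept 14089 genes. Hmgcs1, Idi1, Fdps, Sqle and Lss encode enzymes of the pathway, Srebf2 encodes the transcription factor SREBP-2, and Insig1 encodes the protein that holds this factor in the endoplasmic reticulum.

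Cholesterol is built from acetyl-CoA through mevalonate, isoprenoid units, squalene and lanosterol. When sterols in the endoplasmic reticulum fall, the escort protein SCAP carries SREBP-2 to the Golgi, where the site-1 and site-2 proteases release its active part, which raises transcription of the pathway enzymes and of Insig1. When sterols are plentiful, INSIG proteins retain the SCAP complex, so that enzymes and Insig1 are known to rise and fall with the sterol supply of the cell. In the liver, hepatocytes carry out most of this synthesis and turn part of the product into bile acids.

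RNA was sequenced from 3 normal livers, 3 livers of the empty group and 3 livers of the UTOpiA group. The rats of the last 2 groups were male Sprague-Dawley rats aged 8 to 11 weeks, and both had acute-on-chronic liver failure (ACLF), produced by bile duct ligation for 21 days and then lipopolysaccharide (LPS) at 0.25 mg/kg by intraperitoneal injection. From 1 h after LPS their blood passed for 2 h through an extracorporeal circuit under isoflurane with heparin, so BDL, LPS, anaesthesia, heparin and the circuit itself are common to both groups. In the empty group (empty livers) the circuit held neither cells nor an adsorber. In the UTOpiA group (UTOpiA livers) it held a granulocyte-monocyte apheresis column of cellulose acetate beads and alginate-encapsulated human iPSC-derived hepatocyte-like organoids. Livers were taken 24 h after LPS from rats that were alive then, so each ACLF group is limited to survivors. Of the normal rats the labels say only that they were normal. The libraries held 14241172 to 17321677 counts each. Hepatocyte transcripts took a much larger part of the normal libraries than of the ACLF libraries, with Alb alone taking 13.3% to 14.9% of counts in the normal and 1.54% to 3.91% in the ACLF libraries. Levels of 1 gene are therefore compared between livers as CPM after TMM normalisation (normalised CPM, counts scaled to library size), and levels of different genes as TPM, which are corrected for gene length as well.

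The 250 bases upstream of the start of each gene are shown for 3 members and in part for Insig1 and Srebf2, because these genes share a known regulator. The sequences are those of RefSeq on build GRCr8, written 5′ to 3′ on the strand of the gene, and RefSeq windows were matched for 6 of the 7 members, all but Sqle. Capitals mark CCAAT on either strand (read as ATTGG on the other), the motif named for NF-Y, a factor known to work beside SREBP-2. In the stretch of Srebf2, capitals mark TCACNCCA. For Srebf2 only 30 bases (chr7:115543140-115543169, plus strand) and for Insig1 207 bases (chr4:8058019 down to 8057813, minus strand) are printed, and the Hmgcs1 window is not printed. The Hmgcs1 and Srebf2 windows lie wholly within the listed spans of their genes, so they are upstream of the start used by the table but not of the whole gene. The others are Idi1 (chr17:66547525-66547774), Fdps (chr2:176804817-176805066) and Lss (chr20:12118231-12118480), all on the minus strand.
Srebf2: atgacgcgccaTCACCCCAtgagccgcttc
Idi1: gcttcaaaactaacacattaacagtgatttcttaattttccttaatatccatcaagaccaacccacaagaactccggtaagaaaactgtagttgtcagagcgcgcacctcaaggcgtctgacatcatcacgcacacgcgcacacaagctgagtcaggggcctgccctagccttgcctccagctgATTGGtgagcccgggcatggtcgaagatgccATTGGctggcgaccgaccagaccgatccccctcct
Fdps: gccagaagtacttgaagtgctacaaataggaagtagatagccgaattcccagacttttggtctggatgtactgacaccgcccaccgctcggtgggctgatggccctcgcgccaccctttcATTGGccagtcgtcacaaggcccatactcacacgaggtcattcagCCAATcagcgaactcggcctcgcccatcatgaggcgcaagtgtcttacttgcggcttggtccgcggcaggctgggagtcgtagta
Lss: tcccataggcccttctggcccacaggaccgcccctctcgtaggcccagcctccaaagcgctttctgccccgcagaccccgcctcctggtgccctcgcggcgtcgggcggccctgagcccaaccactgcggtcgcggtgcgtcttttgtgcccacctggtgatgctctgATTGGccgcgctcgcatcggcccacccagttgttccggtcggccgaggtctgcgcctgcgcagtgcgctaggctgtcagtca
Insig1: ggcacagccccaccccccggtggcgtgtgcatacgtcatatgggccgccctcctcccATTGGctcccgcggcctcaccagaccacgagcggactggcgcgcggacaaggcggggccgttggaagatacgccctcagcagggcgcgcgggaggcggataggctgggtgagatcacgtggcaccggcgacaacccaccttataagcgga

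Searched on both strands, CCAAT was found in 6 of the 6 windows, against 34% of 33469 windows of the same length. GGGCGG, the motif named for Sp1, was found in 5 of 6, all but Idi1, against 30.5% of all windows. TCACNCCAC, the core of the sterol regulatory element, was found in 0 of 6, against 0.974% of all windows. The form 1 letter shorter, TCACNCCA, which was added after the windows were seen, was found only in the Srebf2 window, 156 bases before the start used, inside the listed span of the gene, and in 3.24% of all windows. These are matches of letters in one window and describe no binding.

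In normal livers the members spanned a wide range of levels on the TPM scale. Insig1 led at 584 ± 126 TPM (SD, n = 3), above Fdps at 356 ± 49.7 TPM and Hmgcs1 at 302 ± 70.0 TPM, and the last pair overlapped. Idi1 (45.9 ± 13.9 TPM) and Sqle (42.9 ± 10.3 TPM) overlapped each other, and so did Srebf2 (24.5 ± 2.87 TPM) and Lss (22.4 ± 5.05 TPM) at the foot of the order. In both ACLF groups Hmgcs1 had the highest mean instead, at 403 ± 263 TPM in empty livers and 580 ± 261 TPM in UTOpiA livers. In the empty group each neighbour in the order overlapped the next. In the UTOpiA group the gaps from Fdps (183 ± 59.4 TPM) down to Idi1 (88.2 ± 33.8 TPM), and from Sqle (83.0 ± 23.4 TPM) down to Srebf2 (33.5 ± 9.85 TPM), were the ones without overlap.

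**Figure D1:**
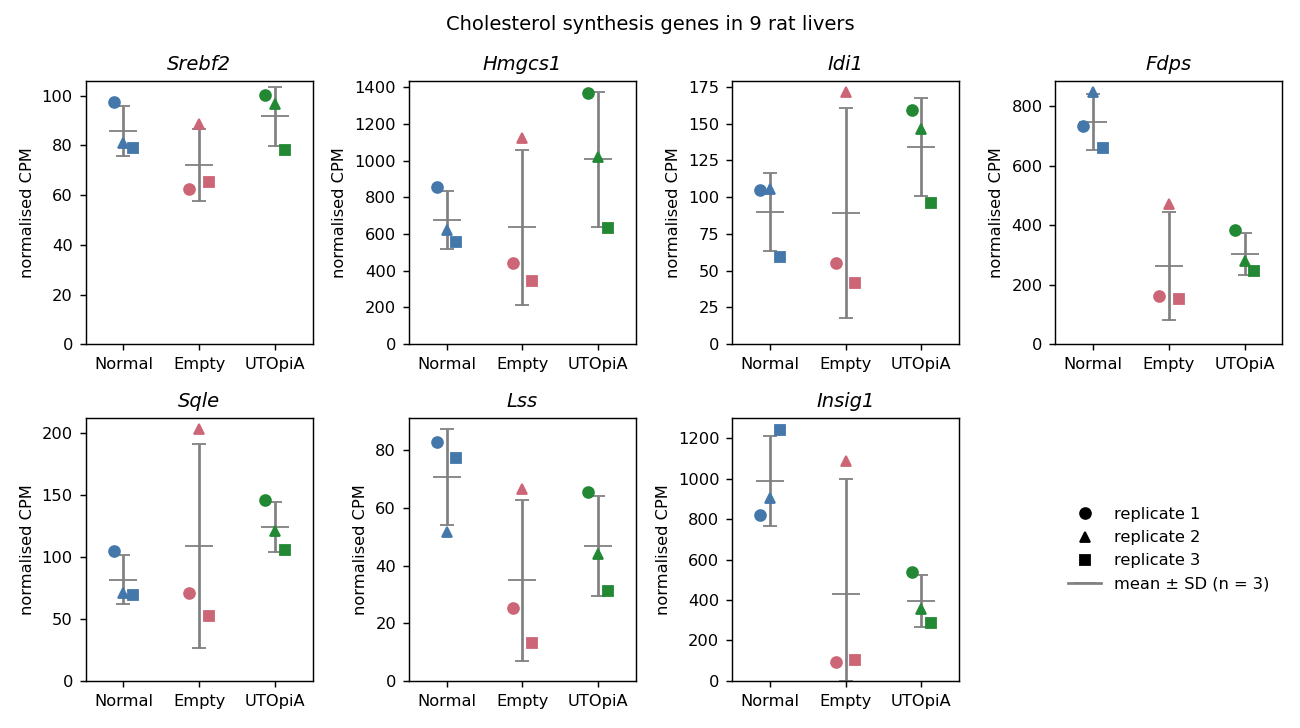
Normalised CPM of the 7 genes (y axes, each from 0) in each liver of the 3 groups (x axes), with marker shape giving the replicate and grey bars the mean ± SD of 3 livers; where the SD exceeded the mean (Insig1 in the empty group) the lower bar stops at 0. Empty replicate 2 is the highest liver of its group for all 7 genes, and all 6 ACLF livers lie below the normal livers for Fdps.

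The first comparison, empty group against normal livers, asks how ACLF with a blank circuit changed the genes. Fdps was the 1 member of 7 that fell by the call used here (edgeR adjusted p under 0.05 over all 14089 genes and a change over 2-fold), and 0 rose. Over all genes tested, 11.1% were called lower and 20.7% higher in this comparison, so 1 of 7 is near the background. The other 6 members did not pass the test. By separation of the livers in normalised CPM, Fdps alone lay below the normal livers (background 28.8%). Over the 7 members the median log2 fold change was -0.25, against 0.04 over all genes tested.

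Fdps (ENSRNOG00000043377, chromosome 2, 188392858 to 188413219, minus strand in the deposited table) encodes farnesyl diphosphate synthase, which makes the last isoprenoid shared by sterols, ubiquinone and dolichol. Its normalised CPM was 734, 846 and 660 in the normal livers, 161, 471 and 153 in empty livers and 384, 280 and 246 in UTOpiA livers. Each of the 6 ACLF livers was below each normal liver in normalised CPM, a separation seen in this direction for 21.4% of genes tested. On the TPM scale the groups overlapped, with empty replicate 2 at 317 and normal replicate 3 at 310. The change was 2.85-fold lower in the empty group (log2 -1.51 ± 0.43 SE, adjusted p = 0.0156) and 2.46-fold lower in the UTOpiA group (log2 -1.30 ± 0.42 SE, adjusted p = 0.0350). Both calls lay near the threshold. The first was lost without empty replicate 1 (adjusted p = 0.0507) or empty replicate 3 (adjusted p = 0.0521). The second was lost without any 1 of the normal livers or without UTOpiA replicate 2 or 3 (adjusted p = 0.0633 to 0.0981). The size of the change stayed between -1.17 and -1.39 on the log2 scale in those fits of the UTOpiA group. DESeq2 called Fdps lower in both comparisons (adjusted p = 0.00106 and 0.00592), in which it called 10.1% and 6.79% of genes lower. A U6 snRNA gene on the same strand lies within the span of Fdps and had 1 to 20 counts per library.

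Insig1 (ENSRNOG00000006859, chromosome 4, 342302 to 350515, plus strand) had the widest spread of all members within the empty group. Its normalised CPM was 818, 905 and 1239 in the normal livers, 93.8, 1086 and 104 in empty livers and 538, 357 and 288 in UTOpiA livers. In the empty group 2 livers were far below every other liver, and replicate 2 was within the range of the normal livers. The log2 fold change against normal was -1.21 ± 0.85 (SE, adjusted p = 0.272) in empty livers and -1.32 ± 0.86 (SE, adjusted p = 0.248) in UTOpiA livers. The 3 UTOpiA livers were all below the 3 normal livers without passing the test in the fit that shares 1 estimate of spread over the 3 groups. In a fit of the 6 normal and UTOpiA libraries alone, Insig1 was called lower in the UTOpiA group (log2 -1.32, adjusted p = 0.00949). DESeq2 with all 9 libraries gave Insig1 no p.

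Lss (ENSRNOG00000054549, chromosome 20, 12842884 to 12870497, minus strand) encodes lanosterol synthase, which closes the ring system of the sterols. Its normalised CPM was 82.8, 51.7 and 77.5 in the normal livers, 25.2, 66.5 and 13.2 in empty livers and 65.6, 44.1 and 31.1 in UTOpiA livers. Empty replicates 1 and 3 were the lowest of the 9 livers, and both ACLF groups overlapped the normal range. The log2 fold change was -1.01 ± 0.54 (SE, adjusted p = 0.148) in empty livers and -0.59 ± 0.53 (SE, adjusted p = 0.407) in UTOpiA livers.

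Sqle (ENSRNOG00000009550, chromosome 7, 99609191 to 99624732, plus strand) encodes squalene epoxidase, a rate-limiting step between squalene and lanosterol. Its normalised CPM was 105, 71.0 and 69.4 in the normal livers, 70.9, 203 and 52.1 in empty livers and 146, 121 and 106 in UTOpiA livers. It was the only member whose 3 UTOpiA livers all lay above the 3 normal livers, as did 30.8% of all genes tested. The difference did not pass the test (1.52-fold, log2 0.60 ± 0.45 SE, adjusted p = 0.317), while a fit of the 6 normal and UTOpiA libraries alone gave log2 0.61 ± 0.21 (SE, adjusted p = 0.0452), under 2-fold. Against normal the empty group gave log2 0.41 ± 0.45 (SE, adjusted p = 0.476).

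Hmgcs1 (ENSRNOG00000016552, chromosome 2, 52431601 to 52445055, plus strand) encodes the cytosolic HMG-CoA synthase, and Idi1 (ENSRNOG00000016690, chromosome 17, 57976268 to 57984036, minus strand) the isomerase that makes the starter unit of isoprenoid chains. Hmgcs1 was at 857, 620 and 558 normalised CPM in the normal livers, 443, 1122 and 343 in empty livers and 1368, 1020 and 633 in UTOpiA livers. Idi1 was at 105, 106 and 59.4 normalised CPM in the normal livers, 54.9, 171 and 41.6 in empty livers and 159, 146 and 96.3 in UTOpiA livers. Both genes straddled the normal range in the empty group, with replicate 2 above and replicates 1 and 3 below all 3 normal livers. Against normal livers, the empty group gave log2 -0.09 ± 0.46 (SE) for Hmgcs1 and -0.01 ± 0.50 (SE) for Idi1 (adjusted p = 0.882 and 0.987), and these signs turned to 0.25 and 0.27 on the TPM scale. The UTOpiA group gave 0.57 ± 0.46 (SE) for Hmgcs1 and 0.57 ± 0.50 (SE) for Idi1 (adjusted p = 0.348 and 0.393). Idi1 overlaps Wdr37 on the opposite strand, which had 191 to 306 counts per library against 725 to 3193 for Idi1.

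Srebf2 (ENSRNOG00000007400, chromosome 7, 123381077 to 123438603, plus strand) varied least. Its normalised CPM was 97.5, 81.2 and 79.0 in the normal livers, 62.4, 88.8 and 65.1 in empty livers and 100.3, 96.7 and 78.0 in UTOpiA livers. Each group overlapped the others. The log2 fold change against normal was -0.25 ± 0.18 (SE, adjusted p = 0.271) in the empty group, where the TPM scale gave 0.25 instead, and 0.09 ± 0.18 (SE, adjusted p = 0.704) in the UTOpiA group. Mir33, a microRNA gene in an intron of Srebf2, was listed at 0 counts in every library.

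The spread inside the empty group came mainly from 1 liver. Empty replicate 2 was the highest of its group for 7 of 7 members (39.7% of all genes) and stood more than 2-fold above both others for 6 of 7, all but Srebf2, whereas 4.78% of all genes tested did so in that liver. The fold above the higher of the other livers was 10.4 for Insig1, 3.10 for Idi1, 2.92 for Fdps, 2.85 for Sqle, 2.61 for Lss, 2.53 for Hmgcs1 and 1.36 for Srebf2. A gap as large as that of Insig1 was seen for 0.220% of genes in that liver. The SD of log2 normalised CPM within the empty group was 2.00 for Insig1 and 0.90 to 1.15 for the 5 enzymes, against a median of 0.27 over all genes. For Srebf2 it was 0.28, close to that median.

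Empty replicate 2 was at the high end of its group in hepatocyte transcripts too. The summed TPM of 7 hepatocyte markers was 20422, 47021 and 20489 in empty replicates 1 to 3, and the summed TPM of the 7 members was 567, 2271 and 554 in the same livers. Without Insig1 the member sum was 492, 1362 and 459 in these livers, nearer to the spread of the hepatocyte markers. Replicate 2 also had the lowest neutrophil marker sum of the group (531, 177 and 1090 TPM) and the highest endothelial one (54.7, 109 and 40.9 TPM). In the normal livers the hepatocyte sum was far higher, at 141961 to 153849, while the member sum was 1373, 1366 and 1393. The part of cell content in these differences was not tested, and in bulk liver, fewer hepatocytes and less RNA per hepatocyte cannot be told apart.

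Without empty replicate 2, more members passed the test against normal livers. Insig1 (log2 -3.33 ± 0.35 SE, adjusted p = 1.44e-04), Fdps (log2 -2.25 ± 0.26 SE, adjusted p = 2.23e-04) and Lss (log2 -1.88 ± 0.40 SE, adjusted p = 0.00531) were then called lower, 3 of 7 members against 12.3% of 14398 genes. Idi1 was lower at less than 2-fold (log2 -0.90 ± 0.31 SE, adjusted p = 0.0362). Sqle turned from 0.41 to -0.41 (adjusted p = 0.182), Hmgcs1 gave -0.79 (adjusted p = 0.0909) and Srebf2 -0.43 (adjusted p = 0.0567). The values without this liver describe 2 livers of the empty group, and nothing in the labels sets it apart. It is treated apart because these same members were high in it. The fits without it, here and below, are therefore no independent test of the pathway genes.

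**Figure D2:**
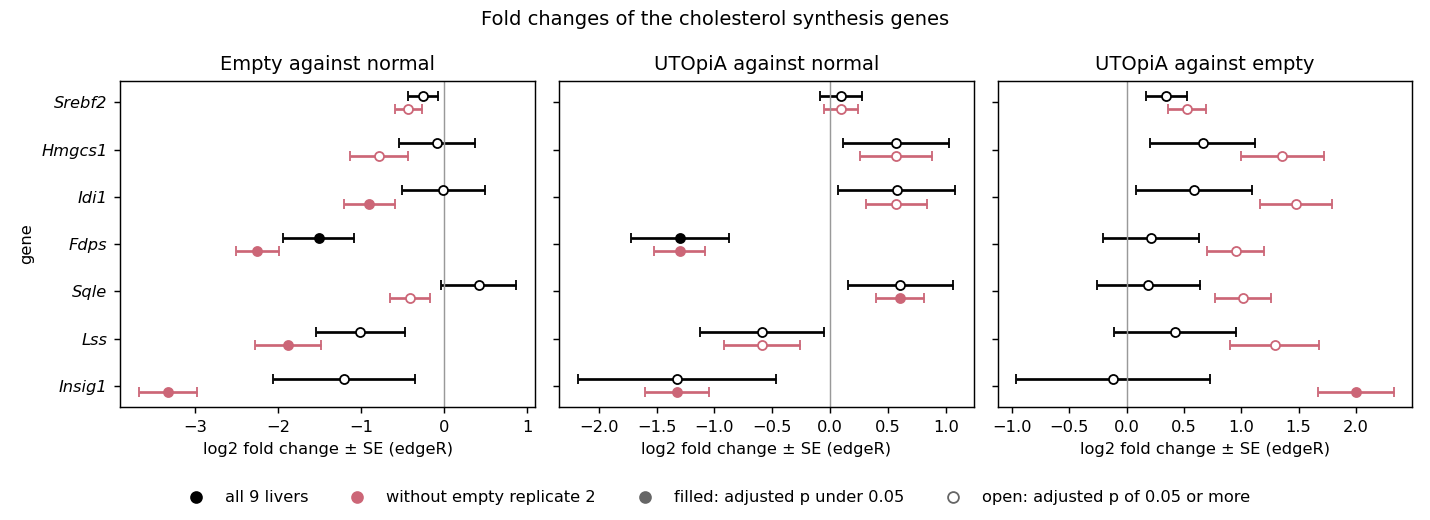
Log2 fold change ± SE from edgeR (x axes) of the 7 genes (y axis) in the 3 comparisons, with all 9 livers (black) and without empty replicate 2 (red); filled points have an adjusted p under 0.05. Leaving out that liver moves Insig1 from -1.21 to -3.33 in the empty group against normal livers and from -0.12 to 2.00 in the UTOpiA group against the empty group.

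The second comparison, UTOpiA group against normal livers, shares the normal livers with the first. Again Fdps was the 1 of 7 members called lower, where 6.81% of all genes were, and 0 members were called higher, where 18.2% of all genes were. By separation of the livers, 2 of 7 members lay below the normal livers (Fdps and Insig1, background 26.1%) and 1 lay above (Sqle). The median of the 7 log2 fold changes was 0.09, against 0.05 over all genes. Without empty replicate 2, which is in neither group of this comparison but enters the shared fit, Insig1 was called lower in the UTOpiA group as well (log2 -1.33 ± 0.28 SE, adjusted p = 0.00462), making 2 of 7 against 7.38% of genes, and Sqle was higher at less than 2-fold (log2 0.60 ± 0.21 SE, adjusted p = 0.0436).

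In normalised CPM the UTOpiA livers were also ordered alike in the members. Replicate 1 was the highest and replicate 3 the lowest of the group for 7 of 7 members, where 27.9% of all genes had replicate 1 highest and 35.5% had replicate 3 lowest. On the TPM scale replicate 2 was the highest for Srebf2 (36.6, 41.4 and 22.4 in replicates 1 to 3) and Idi1 (104, 112 and 49.4). The summed TPM of the members was 1682, 1465 and 711 in UTOpiA replicates 1 to 3. The hepatocyte markers had another order, with summed TPM of 42942, 21723 and 35217. UTOpiA replicate 2 was thus second in the members and lowest in the hepatocyte markers.

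The third comparison, UTOpiA group against empty group, is the one that bears on the treatment. None of the 7 members passed the test, and of all 14089 genes edgeR called 0 in either direction (background 0%), with 211 higher and 263 lower by over 2-fold at an unadjusted p under 0.05. By DESeq2, 52 genes were called higher and 74 lower (0.364% and 0.518%), with 0 members among them. It gave Insig1 no p, so that member could not be called. The log2 fold changes were 0.66 ± 0.46 (SE) for Hmgcs1, 0.59 ± 0.50 for Idi1, 0.43 ± 0.53 for Lss, 0.35 ± 0.18 for Srebf2, 0.21 ± 0.42 for Fdps, 0.19 ± 0.45 for Sqle and -0.12 ± 0.84 for Insig1, with adjusted p from 0.539 to 0.975. The groups overlapped for every member, whereas 6.15% of all genes lay wholly above and 5.97% wholly below in the UTOpiA group. On the TPM scale the Insig1 difference was 0.59 in the other direction.

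This comparison also changed without empty replicate 2. In that fit, Insig1 was higher in the UTOpiA group than in the remaining 2 livers of the empty group (log2 2.00 ± 0.33 SE, adjusted p = 0.0474), 1 of 7 members against 0.181% of genes. The other 6 were above 0 as well, from 0.53 for Srebf2 to 1.48 for Idi1, without passing the test (adjusted p = 0.0826 to 0.185). DESeq2 without that liver, an alternative added after the values were seen, called 4 of 7 members higher, namely Insig1 (log2 1.97, adjusted p = 2.40e-08), Idi1 (log2 1.45, adjusted p = 6.94e-04), Hmgcs1 (log2 1.33, adjusted p = 0.00354) and Lss (log2 1.27, adjusted p = 0.0259), against 2.56% of genes. The liver left out was chosen by its high values of these members, so leaving it out lowers the empty mean and narrows its spread. The shares are over genes not chosen in this way. These calls are therefore no independent support for a difference between the groups. With all 9 livers no such difference was shown.

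Ratios between members within 1 liver do not depend on the scaling of the library, and some varied far less than the levels. Across the 6 ACLF livers, the ratio of Fdps to Sqle on the TPM scale was 2.05, 2.09 and 2.66 in empty livers and 2.39, 2.10 and 2.10 in UTOpiA livers. In the normal livers it was 6.36, 10.8 and 8.60, so the ACLF livers had 3.77-fold less Fdps per Sqle (ratio of geometric means). Empty replicate 2 did not stand out in the ratio of Fdps to Sqle. It did in ratios to Insig1, such as Sqle to Insig1 (0.672, 0.166 and 0.447 in empty replicates 1 to 3).

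Of the 21 pairs of members, 9 had ratios that did not overlap between the 6 ACLF livers and the 3 normal livers. Fdps was lower in ACLF relative to Srebf2, Hmgcs1, Idi1 and Sqle, Lss relative to Hmgcs1, Idi1 and Sqle, and Insig1 relative to Idi1 and Sqle. Such a separation was common among all tested genes, since 69.2% of all tested genes had a ratio to Fdps that separated the livers, 36.1% did so with Srebf2, 31.9% with Insig1, 29.2% with Lss, 20.5% with Sqle, 17.4% with Hmgcs1 and 15% with Idi1. The ratio of Hmgcs1 to Idi1 overlapped, at 5.13 to 8.19 in normal and 5.72 to 7.50 in ACLF livers. Between the empty and the UTOpiA group, 2 of 21 ratios did not overlap. Over all tested genes, 6.02% had a ratio to Idi1 that separated these groups, 2.95% a ratio to Fdps and 2.78% a ratio to Sqle, and the pairs were not tested further. Idi1 relative to Fdps was 0.365, 0.390 and 0.291 in empty livers and 0.445, 0.559 and 0.420 in UTOpiA livers, and Idi1 relative to Sqle was 0.750, 0.816 and 0.774 against 1.06, 1.17 and 0.882.

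**Figure D3:**
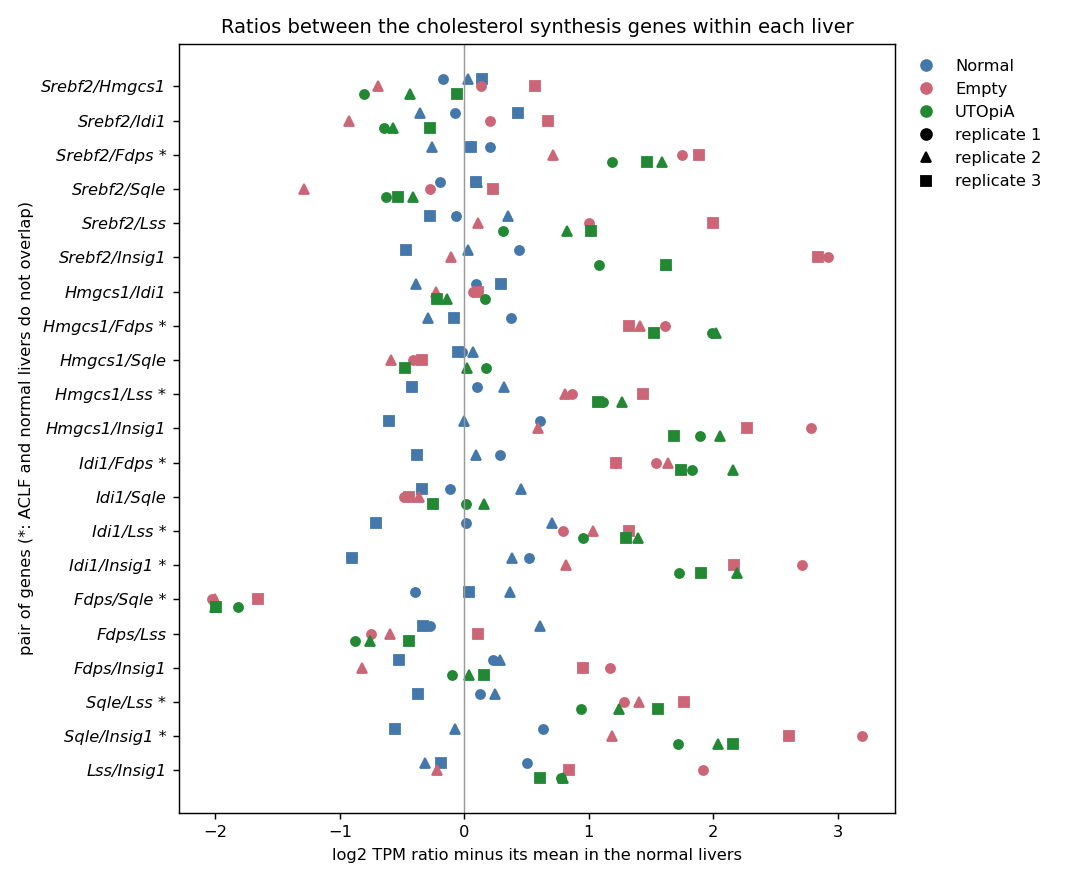
Log2 ratio of TPM for the 21 pairs of members (y axis) in each liver, minus the mean of the normal livers (x axis), with colour for the group and shape for the replicate; an asterisk marks the 9 pairs in which ACLF and normal livers do not overlap. The Fdps to Sqle ratio, the one of the 21 with the narrowest range over the ACLF livers, lies near -2 in all 6 of them.

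Most other enzymes of the pathway had values below normal in ACLF livers, as Fdps had. Of a list of 16 further genes, 15 were tested (Lbr was not among the symbols used). In the empty group 8 of 15 fell (background 11.1%) and 0 rose by over 2-fold, with a median log2 fold change of -1.27 against 0.04 over all genes. Nsdhl, which removes a methyl group from the sterol ring, fell most (log2 -2.55 ± 0.35 SE, adjusted p = 5.13e-04). It was at 1110, 1120 and 1160 normalised CPM in normal livers, 158, 301 and 121 in empty livers and 323, 204 and 248 in UTOpiA livers. No ACLF liver came near the normal range for Nsdhl, empty replicate 2 included.

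Early steps fell with late ones. Acat2, which joins acetyl-CoA units (log2 -2.11, adjusted p = 0.0186), and Pmvk (log2 -1.74, adjusted p = 0.00633) and Mvd (log2 -1.82, adjusted p = 0.0116), the last enzymes of the mevalonate steps, fell in the empty group, as did Sc5d (log2 -1.75, adjusted p = 0.0292), Ebp, Hsd17b7 and Dhcr7 of the late sterol steps. Ggps1, which takes the product of Fdps away from sterols towards protein prenylation, was the 1 gene of the list above normal, at less than 2-fold (log2 0.50 ± 0.17 SE, adjusted p = 0.0378). In the UTOpiA group 3 of 15 fell against normal livers (background 6.81%), namely Nsdhl (log2 -2.13, adjusted p = 0.0016), Acat2 (log2 -1.85, adjusted p = 0.0367) and Pmvk (log2 -1.29, adjusted p = 0.0281), and the median was -0.81. Of these 3, only Nsdhl kept the call without any 1 of the normal livers, without UTOpiA replicate 2 or 3, and in the 3 limma fits on TPM. Against the empty group 0 of 15 passed the test, with 15 of 15 values above 0 (50.2% of all genes) and a median of 0.40 (0.0012 over all genes).

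Empty replicate 2 was the highest liver of its group for 14 of these 15 genes (39.7% of all genes) and over 2-fold above both others for 10 (4.78% of all genes). In that liver 12 of the 15 lay below the normal mean all the same, with a median difference of -0.40 on the log2 scale. Without it, 14 of 15 fell against normal livers (background 12.3%), and 5, 5 and 4 fell without normal replicate 2, empty replicate 1 or empty replicate 3. UTOpiA replicate 1 was likewise the highest of its group for 14 of 15 in normalised CPM (27.9% of all genes). Cyp51, the lanosterol demethylase, was one of the 3 genes of the list at or above the normal mean in empty replicate 2, at 559, 631 and 476 normalised CPM in normal livers, 150, 705 and 92.4 in empty livers and 513, 352 and 296 in UTOpiA livers (adjusted p = 0.328 and 0.552 against normal). One liver of the empty group was thus above all normal livers for Cyp51 while the others were the lowest of all 9.

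**Figure D4:**
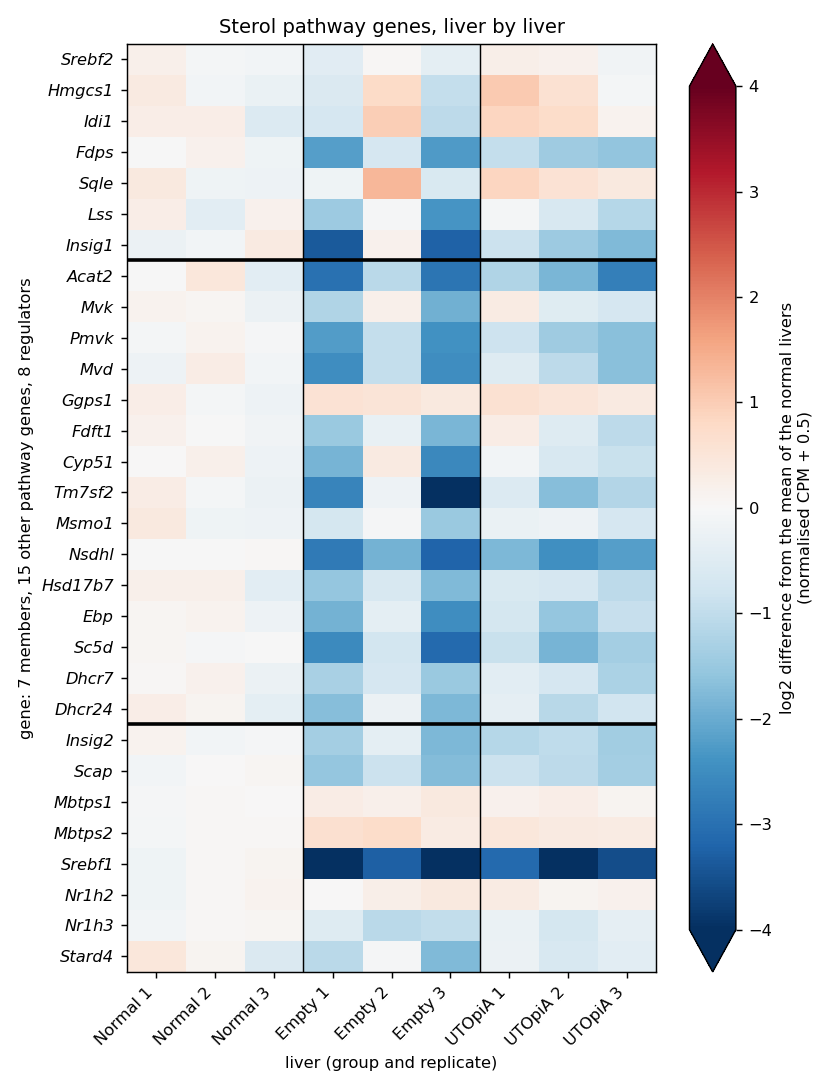
Log2 difference of normalised CPM (plus 0.5) from the mean of the normal livers (colour, with values past 4 in either direction drawn as 4) for the 7 members, 15 other pathway genes and 8 regulators (rows) in the 9 livers (columns). Empty replicates 1 and 3 are blue for most pathway genes while replicate 2 is paler or red, and Srebf1 is blue in all 6 ACLF livers.

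Among 8 genes that regulate the pathway, 3 fell in both ACLF groups by over 2-fold (background 11.1% in the empty and 6.81% in the UTOpiA group). Srebf1, which encodes the related factor SREBP-1 of fatty acid synthesis, was at 1079, 1257 and 1287 normalised CPM in normal livers, 28.4, 125 and 29.4 in empty livers and 139, 47.5 and 102 in UTOpiA livers (log2 -4.31 ± 0.68 SE, adjusted p = 0.00113, and -3.65 ± 0.66 SE, adjusted p = 0.00299). Scap, the escort of both factors, fell by 1.34 and 1.08 on the log2 scale (adjusted p = 0.00179 and 0.00671), and Insig2, the paralogue of Insig1, by 1.06 and 1.19 (adjusted p = 0.0204 and 0.016). In normalised CPM, empty replicate 2 was below every normal liver for Srebf1, Scap and Insig2, while its Insig1 was within the normal range. On the TPM scale its Insig2 (115) was within the normal range (101 to 117), and its Insig1 (909) was above it (483 to 725). Mbtps2, the site-2 protease, was higher in the empty group at less than 2-fold (log2 0.59, adjusted p = 0.00916), and Nr1h3, the sterol-sensing receptor LXR alpha, lower (log2 -0.85, adjusted p = 0.00589). Mbtps1, Nr1h2 and Stard4 did not pass the test, and between the UTOpiA and empty groups 0 of 8 did.

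Genes of sterol uptake, efflux and storage were called in both directions. Of 13 tested, 3 rose and 4 fell by over 2-fold in empty livers (background 20.7% and 11.1%) and 3 rose and 1 fell in UTOpiA livers (background 18.2% and 6.81%), so the counts that rose and the 1 that fell were near the background. Soat1, which esterifies cholesterol in most cells, was at 1.92, 2.02 and 1.72 normalised CPM in normal livers, 16.3, 15.8 and 12.8 in empty livers and 7.48, 13.9 and 4.66 in UTOpiA livers (log2 2.98 and 2.20, adjusted p = 3.32e-04 and 0.0019). Soat2, the form known from hepatocytes and gut, fell (log2 -1.29 and -1.09, adjusted p = 0.00112 and 0.0035), so the pair moved in opposite directions in both groups. Abcg1, a sterol exporter (log2 1.50 and 1.25), and Mylip, a ubiquitin ligase acting on lipoprotein receptors (log2 1.48 and 1.60), rose in both, while Npc1, which moves cholesterol out of lysosomes, and Lcat, which esterifies cholesterol in plasma, fell by over 2-fold in the empty group. Abca1, the main exporter to nascent HDL, was lower at less than 2-fold in both (log2 -0.83 and -0.90, adjusted p = 0.012 and 0.0111). Between the ACLF groups 0 of 13 passed the test.

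**Figure D5:**
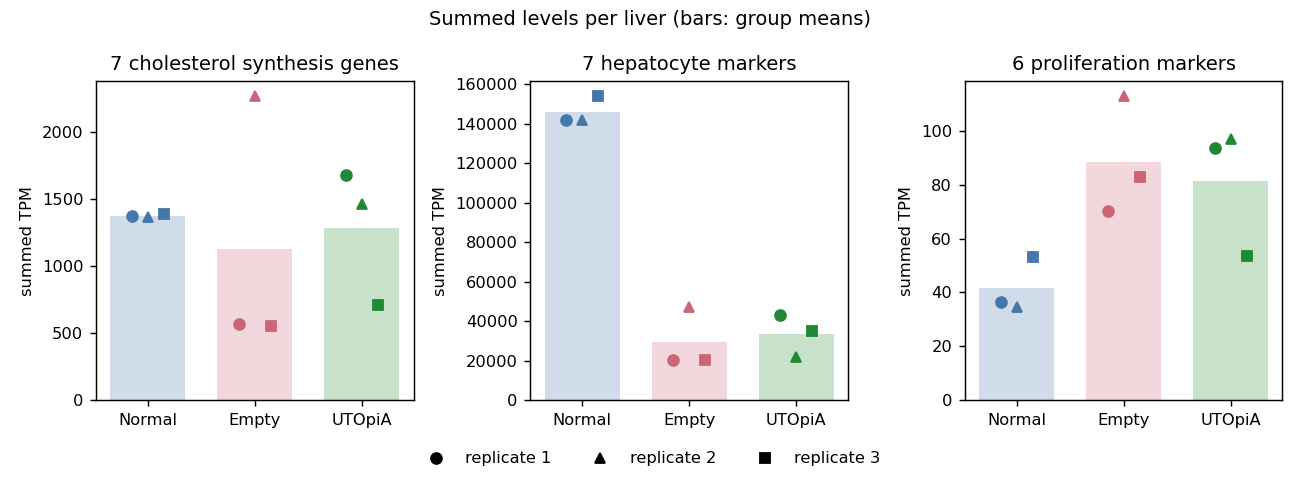
Summed TPM per liver (y axes) of the 7 cholesterol synthesis genes, 7 hepatocyte markers and 6 proliferation markers in the 3 groups (x axes), with bars for the group mean and points for the livers. The member sum of empty replicate 2 (2271 TPM) is above all normal livers while its hepatocyte sum (47021 TPM) is below them.

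Markers of several cell types moved with the groups, and counts are given here over the markers that were tested. Over all genes, 20.7% rose and 11.1% fell in empty livers, and 18.2% rose and 6.81% fell in UTOpiA livers. Of the 7 hepatocyte markers 5 fell in empty livers and 3 in UTOpiA livers. The cholangiocyte list rose in 6 of 6 genes in both, with summed TPM of 14.5 to 24.8 in normal livers, 304 to 610 in empty livers and 128 to 389 in UTOpiA livers. Stellate and fibroblast markers rose in 5 of 6 and 6 of 6 (90.6 to 103 TPM in normal, 832 to 1007 in empty and 421 to 1019 in UTOpiA livers), macrophage markers in 4 of 5 and 4 of 5 (183 to 215, 328 to 557 and 236 to 489 TPM), and neutrophil markers in 4 of 4 and 4 of 4 (2.15 to 5.24, 177 to 1090 and 173 to 501 TPM). T and B cell markers rose in 3 of 5 and 3 of 5 (12.7 to 14.9, 55.4 to 93.0 and 28.1 to 92.3 TPM), erythroid markers in 2 of 2 and 2 of 2 (37.2 to 120, 1036 to 1221 and 370 to 604 TPM) and proliferation markers in 4 of 6 and 4 of 6 (34.7 to 53.3, 70.3 to 113 and 53.5 to 97.1 TPM). Of 5 endothelial markers, 1 fell in each ACLF group and 1 rose in the UTOpiA group, counts near those shares (74.2 to 83.0, 40.9 to 109 and 48.2 to 76.5 TPM). None of the listed markers was at 0 in all 9 libraries, and the part of cell make-up in the changes of the sterol genes was not tested.

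Likeness was measured by the root mean square difference of log2 normalised CPM, each gene less its mean in the normal livers. Among 12989 genes, those most like the mean of the members over the 9 libraries were named. They were Mvk, the mevalonate kinase of the same pathway (0.188), Pon3 (0.229), Dpp4 (0.249) and Manba (0.25). For Insig1 alone the nearest were LOC681544 (0.414), Cyp3a18 (0.469) and the pathway enzyme Sc5d (0.476), and for Srebf2 alone Wars2 (0.0458), Purb (0.103) and Zbtb22 (0.11).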

How the data were processed

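Bulk liver RNA-seq was analysed from 9 rats in 3 groups of 3, named biological replicates by the labels, which gave group and replicate and no batch. The authors deposited raw counts per gene and TPM, normalised by gene length. The submitters' processing notes name Trimmomatic, HISAT2, featureCounts and build rn6, whereas the methods name Cutadapt 1.9.1, HISAT2 2.0.1, featureCounts 2.6.0 and a mouse build. The labels name a NEBNext and the methods an MGIEasy library kit. The tables list rat genes, whose positions are given as deposited. The strand setting is not given in the sources used here, so overlapping genes could share reads.

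Counts were filtered by filterByExpr, TMM-normalised and fitted with edgeR 4.0.16 in R 4.3.3 (quasi-likelihood, robust, all 9 libraries, two-sided). DEGs had a Benjamini-Hochberg adjusted p under 0.05 over 14089 genes and a change over 2-fold. The 3 comparisons share groups. The test was checked on simulated counts. Alternatives were DESeq2 1.42.0, limma 3.58.1 on log2 TPM with pseudocounts of 1 and 0.1, other filters and normalisation, 6-library fits, the replicate block and leaving out each library. DESeq2 without each ACLF library was added after the values were seen. The members, the pathway, regulator, uptake and 9 marker lists and the rules for named genes (all members, the list members called, and the genes most like the members) were chosen with earlier results of these data known. Some genes of the lists and of the likeness rule are not reported here by name. RefSeq windows of GRCr8 were searched for motifs and compared with no position of the tables.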

Additional observations from a re-analysis of the deposited data

How the results depend on the processing

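The members had 275 to 21039 counts per library, and with 3 livers per group their log2 fold changes had standard errors of 0.18 to 0.86. Leaving out empty replicate 2 lowered that of Insig1 in the empty group against normal from 0.85 to 0.35. On the TPM scale the median gene was 0.44 (empty) and 0.29 (UTOpiA) above normal on the log2 scale, against 0.04 and 0.05 after TMM. Of 504 alternative values of the members' fold changes, 430 kept direction and side of the threshold, 42 changed sign, 12 gained the call (2 of them with a change of sign) and 11 lost it, and 12 had no adjusted p (1 of them with a change of sign). Causes were not tested.

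Members called lower in the empty group against normal (1) came to 0 with limma without a TPM filter, 3 with DESeq2 without empty replicate 2, and 0 to 3 over the fits leaving out 1 library. In the UTOpiA group (1) they came to 0 in the 3 limma fits, 2 in the 6-library fit, 2 with DESeq2 without empty replicate 2, and 0 to 2 with 1 library left out. Members called higher under UTOpiA than in the empty group (0) came to 0 to 1 with 1 library left out and 4 with DESeq2 without empty replicate 2. Other pathway genes called lower in the empty group (8) came to 5 in each limma fit, 14 with DESeq2 without empty replicate 2, and 4 to 14 with 1 library left out, and 1 (Ggps1) was called higher with a pseudocount of 0.1 or no fold threshold. In the UTOpiA group (3) they came to 1 in each limma fit, 7 in the 6-library fit, 1 to 6 with 1 library left out, and with DESeq2 to 7, 5, 6 and 5 without empty replicate 2, 1 or 3 or UTOpiA replicate 1, and 1 was called higher without the fold threshold. Against the empty group 9 were called higher by DESeq2 without empty replicate 2.

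Signs changed as follows (log2). In the empty group against normal, Hmgcs1 gave 0.0074 with at least 10 counts in every library, 0.25 in each limma fit, -0.79 to 0.20 with 1 library left out, and 0.12 and 0.22 with DESeq2 without empty replicate 1 or 3. Idi1 gave 0.089 with at least 10 counts, 0.27 in each limma fit, -0.90 to 0.33 with 1 library left out, and with DESeq2 0.25, 0.34 and 0.0020 without empty replicate 1 or 3 or UTOpiA replicate 2. Sqle gave -0.41 to 0.75 with 1 library left out and -0.39 with DESeq2 without empty replicate 2, and Srebf2 gave 0.25 in each limma fit. In the UTOpiA group against the empty group, Fdps gave -0.058 to 0.95 with 1 library left out and with DESeq2 -0.059, -0.073 and -0.0088 without empty replicate 1 or 3 or UTOpiA replicate 1. Sqle gave -0.14 to 1.01 with 1 library left out and -0.059 and -0.16 with DESeq2 without empty replicate 1 or 3. Insig1 gave 0.59 in each limma fit, -0.59 to 2.00 with 1 library left out, and 1.97 and 0.056 with DESeq2 without empty replicate 2 or UTOpiA replicate 3.

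Same-numbered livers deviated together by r of -0.18 to 0.06, so the numbers were not taken to pair the samples. With the replicate block, no member changed its call, and Insig1 in the UTOpiA group against the empty group turned to 0.58.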
